A study of Mus musculus with 4 samples.

Results

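The genes described here carry heme and porphyrins across membranes, bind heme, or break it down, and they were compared between normal and leukemic erythroid cells of the mouse. The set holds 10 genes chosen by name, Hmox1, Hmox2, Blvra, Blvrb, Flvcr1, Abcg2, Tmem14c, Abcb10, Abcb6 and Hebp1, matched by symbol among the 19938 genes that had a probe set of their own on the array. All 10 were measured, by 11 probe sets in all, since Flvcr1 had more than 1. Flvcr1 was read by its brighter one.

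MEL cells, a murine erythroleukemia line blocked at an immature stage, carried a stable transgene of Gata-1 fused to ER (the estrogen receptor) and grew in DMEM with serum and puromycin. ES-EP, erythroid progenitors made from embryonic stem cells, grew in StemPro34 with Epogen (erythropoietin), IGF-1, a glucocorticoid and SCF. Both were proliferating, and total RNA of duplicate cultures of each, A and B, was hybridized to 4 Affymetrix Mouse Gene 1.0 ST arrays. Cell type, transgene and medium cannot be told apart in this design, and each p-value reflects no more than the variation of duplicate cultures. Fewer cells that hold a transcript and less of it per cell cannot be told apart either.

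Heme is made partly in the mitochondrion and partly in the cytosol, so its precursors and the finished ring have to be moved across several membranes. Free heme is toxic, and cells limit it by export, by binding proteins and by breakdown, in which heme oxygenase opens the ring to give biliverdin, iron and carbon monoxide, and biliverdin reductase turns biliverdin into bilirubin. Erythroid cells make large amounts of heme for hemoglobin, while the breakdown of old red cells takes place mainly in macrophages.

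Of the 10 genes, 8 were lower in MEL than in ES-EP, 1 was higher (Abcb6) and 1 did not pass the test (Hmox2). The wide differences were those of the heme-binding protein Hebp1 (4.64-fold lower in MEL), the exporter Abcg2 (3.2-fold), the mitochondrial transporter Abcb10 (2.94-fold) and the biliverdin reductase Blvra (2.58-fold). A gene was called at an adjusted p under 0.05 (limma, Benjamini-Hochberg over all genes). Calls were frequent on these arrays. Of all 19938 genes 63.8% were called, 43.2% lower and 20.5% higher in MEL, so a call alone says little of a gene. Among the 11372 genes above background in both cell types 41.3% were lower. A call together with a difference of at least 2-fold was rarer, at 4.27% of all genes in the lower direction, and 5 of the 10 genes met it. The count was 4 under each of 3 rescalings (quantile normalization, median centring and cyclic loess), where Tmem14c dropped under 2-fold. The 4.27% was taken over all genes on the deposited values. No such share was computed over genes above background, where all 10 genes lay, or after rescaling. Arrays of the groups did not overlap for 9 of the 10 genes, against 81.8% of all genes. The median difference of the 10 genes was -0.96 on the log2 scale, beside -0.15 over all genes and -0.12 over genes above background in both. The rescalings brought the median of all genes to between -0.03 and 0 and that of the 10 genes to between -0.90 and -0.81, and they split the calls of all genes into 5344 higher and 5974 lower (quantile), 5757 and 5644 (median centring) and 5676 and 5460 (cyclic loess), in place of 4096 and 8622. No call of the 10 genes was lost or turned by them.

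**Figure D1:**
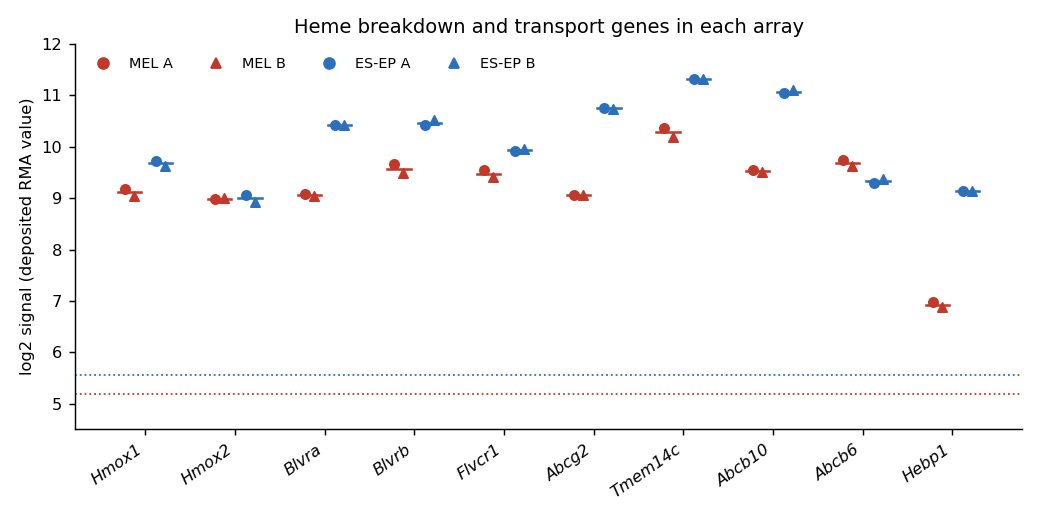
Log2 signal (y axis) of the 10 genes (x axis) on each array, with MEL red and ES-EP blue, 1 point per array, a bar at the mean of 2 and dotted lines at the background level of each cell type. Hebp1 stood at 6.97 and 6.89 in MEL and 9.14 in both ES-EP arrays, while the points of Hmox2 overlapped.

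Background was read from 1027 olfactory receptor genes, a family of odorant receptors of the nose. Their 95th percentile was 5.19 in MEL and 5.56 in ES-EP, and all 10 genes lay above it in both. These receptor genes differed by a median of -0.20, and 502 of them were called, 461 lower in MEL. Rescaling did not remove these calls, and 377 (quantile), 376 (median centring) and 375 (cyclic loess) of the receptor genes were still called. Array medians were 5.68 and 5.67 in MEL against 5.81 and 5.84 in ES-EP, and duplicate arrays correlated at r = 0.998 across genes, which are not independent replicates. Gata1, the erythroid master factor that the MEL line carries as a fusion, read 12.38 and 12.34 in MEL against 11.15 and 11.29 in ES-EP, 2.21-fold higher in MEL, by a probe set that may also read the transgene.

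The first step of breakdown is taken by the heme oxygenases, of which Hmox1 is the form induced by heme and oxidative stress and Hmox2 the form made constantly in most tissues. Hmox1 (probe set 10572897) read 9.17 and 9.05 in MEL against 9.73 and 9.63 in ES-EP. Both MEL arrays were below both ES-EP arrays, by 0.57 ± 0.09 (SE) on the log2 scale, or 1.49-fold (95% interval 1.3 to 1.69, adjusted p = 0.000212). Among all genes 14.3% had a more negative difference. Under Holm's adjustment Hmox1 was no longer called (adjusted p = 0.772), in a range of 7.58e-06 to 0.772 over the alternatives. Hmox2 read 8.98 and 9.0 in MEL against 9.06 and 8.93 in ES-EP, so that the groups overlapped. Its difference was -0.01 ± 0.08 (SE, 95% interval -0.19 to 0.18, adjusted p = 0.955), and after rescaling it was 0.03, 0.06 or 0.14, uncalled each time. The interval leaves room for differences of either sign up to about 0.19. The gap between Hmox1 and Hmox2 within an array, in which any shift common to an array cancels, was 0.19 and 0.05 in MEL against 0.66 and 0.70 in ES-EP. It was narrower by 0.56 in MEL, and none of the arrays overlapped. The gap describes unequal change of the inducible and the constant form on these arrays and not their relative levels. No test was run on this gap or on the gaps given below. Non-overlap held for 81.8% of all genes taken singly, and no such share was computed for pairs of genes.

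The biliverdin reductases act next. Blvra reduces the main isomer of biliverdin to bilirubin, and Blvrb, which is abundant in red cells, reduces flavins and the beta isomer. Blvra read 9.08 and 9.04 in MEL and 10.43 in both ES-EP arrays, and Blvrb read 9.67 and 9.48 in MEL against 10.42 and 10.52 in ES-EP. Both were lower in both MEL arrays, and the spread of the duplicates was small beside the gap. Blvra differed by -1.37 ± 0.08 (SE, 2.58-fold, adjusted p = 1.28e-07), and 2.43% of genes had a more negative difference. Blvrb differed by -0.89 ± 0.09 (SE, 1.85-fold, adjusted p = 1.3e-05), and 5.48% of genes lay beyond it. The gap of Blvrb over Blvra within an array was 0.59 and 0.44 in MEL against -0.02 and 0.09 in ES-EP. It changed by 0.48 between the cell types without overlap, again with no test. Both reductases were thus lower in MEL, Blvra by more.

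At the plasma membrane, Flvcr1 is known as a heme exporter and Abcg2 as an ATP-driven pump that sheds porphyrins and is prominent in stem cells and early erythroid cells. Abcg2 read 9.06 and 9.07 in MEL against 10.76 and 10.73 in ES-EP. Both MEL arrays lay far below both ES-EP arrays, and the cell types differed by -1.68 ± 0.08 (SE, 95% interval -1.85 to -1.50), or 3.2-fold (adjusted p = 2.36e-08). Of all genes 1.76% were more negative. Flvcr1 read 9.54 and 9.41 in MEL against 9.91 and 9.95 in ES-EP by its brighter probe set. These groups did not overlap, with a difference of -0.45 ± 0.08 (SE, 1.37-fold, adjusted p = 0.000844), but 21.7% of all genes were more negative. Its other probe set (10361075) read 7.98 and 7.88 in MEL against 7.89 and 8.13 in ES-EP, which overlapped, with a difference of -0.08 ± 0.11 (SE, adjusted p = 0.589 over all probe sets). The mean of both probe sets gave -0.27 (adjusted p = 0.0213). Flvcr1 also lost its call under Holm's adjustment (adjusted p = 1) and in a test against a 1.2-fold difference (adjusted p = 0.0666), in a range of 4.16e-05 to 1 over the alternatives.

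Within the mitochondrion, Tmem14c, an inner membrane protein, is needed to bring protoporphyrinogen IX to the matrix, and Abcb10, an inner membrane ABC transporter, is needed for hemoglobin synthesis and stabilizes the iron importer mitoferrin 1 (Slc25a37). Tmem14c read 10.37 and 10.19 in MEL against 11.31 and 11.32 in ES-EP. Abcb10 read 9.55 and 9.50 in MEL against 11.05 and 11.10 in ES-EP. Both were lower on both MEL arrays. Tmem14c differed by -1.03 ± 0.09 (SE, 2.05-fold, adjusted p = 3e-06), with 3.95% of genes more negative, and by -0.96, -0.89 and -0.98 after the 3 rescalings. Abcb10 differed by -1.56 ± 0.08 (SE, 2.94-fold, adjusted p = 4.9e-08), with 2.0% of genes more negative. Abcb6 belongs to the same transporter family and has been placed in the outer mitochondrial membrane and other membranes as a porphyrin carrier. It went the other way and read 9.74 and 9.63 in MEL against 9.29 and 9.38 in ES-EP. The difference was 0.35 ± 0.08 (SE, 95% interval 0.16 to 0.54, 1.27-fold higher in MEL, adjusted p = 0.00431), and 15.8% of genes were more positive. This call was lost without MEL replicate A (0.29, adjusted p = 0.0516), under Holm's adjustment (adjusted p = 1) and in the test against a 1.2-fold difference (adjusted p = 0.359), in a range of 0.00054 to 1 over the alternatives. The gap of Abcb10 over Abcb6 within an array was -0.19 and -0.13 in MEL against 1.76 and 1.72 in ES-EP. It changed by -1.91, the widest change of the 3 gaps computed.

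Hebp1, a cytosolic protein that binds heme and other tetrapyrroles, had the largest difference of the 10 genes. It read 6.97 and 6.89 in MEL and 9.14 in both ES-EP arrays. The MEL values were above background, and the difference was -2.21 ± 0.08 (SE, 95% interval -2.39 to -2.03), or 4.64-fold lower in MEL (adjusted p = 2.93e-09). Of all genes 1.07% had a more negative difference. The rescalings gave -2.20, -2.06 and -2.14.

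**Figure D2:**
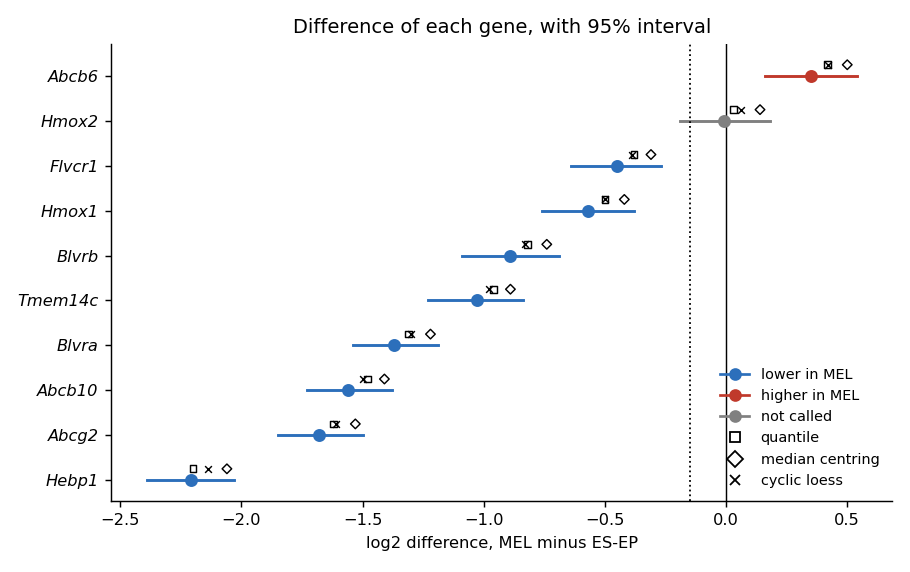
Log2 difference of MEL minus ES-EP (x axis) for each of the 10 genes (y axis), with 1 large point per gene and a bar for the 95% interval from limma. Small squares, diamonds and crosses mark the values after quantile normalization, median centring and cyclic loess. The dotted line marks the median of all genes. The interval of Hmox2 spans 0, that of Abcb6 lies above 0, and the other 8 lie below it, down to -2.21 for Hebp1.

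**Figure D3:**
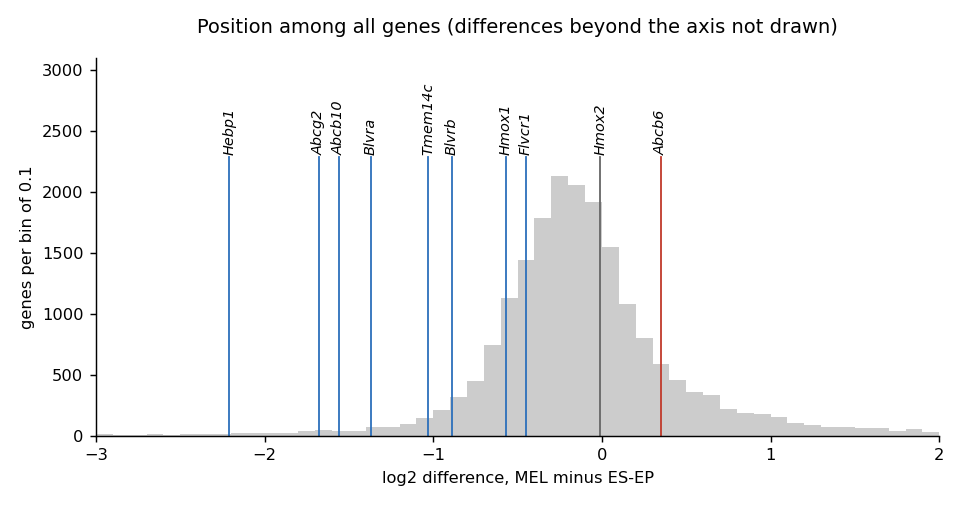
Number of genes (y axis) by log2 difference of MEL minus ES-EP (x axis) in bins of 0.1, with a line for each of the 10 genes, blue where lower in MEL, red where higher and grey where not called. Hebp1, Abcg2, Abcb10 and Blvra lie in the thin left tail, and Hmox1, Flvcr1, Hmox2 and Abcb6 lie within the bulk of all genes.

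The promoters of these genes were searched for short motifs in RefSeq windows of 300 bases (250 before to 50 after a gene start, GRCm38.p6, both strands). Windows were given for 9 of the 10 genes, 14 in all (Hmox1 was not among them). The antioxidant response element core TGACNNNGC, a motif read by NRF2 and BACH1, was in 2 of the 14 windows, against 12.4% of 32851 windows of all genes. The count is near that share, so it sets these genes apart in no way. The matches were in Flvcr1 and Blvra, and the stretch around each is shown as description only. Capitals mark the match, which lies on the strand of Flvcr1 (chr1:191026303-191026371, minus strand, match at position -151 from the start) and on the opposite strand for Blvra (chr2:127070578-127070628, plus strand, position -49).
Flvcr1: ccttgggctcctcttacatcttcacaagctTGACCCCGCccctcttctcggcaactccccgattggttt
Blvra: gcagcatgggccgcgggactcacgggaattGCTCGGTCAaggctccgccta

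Neither match overlapped another motif searched. The GATA motif (AGATAA, or the same with T first or G last) was in 2 of the 14 windows, of Blvrb and Hmox2, against 29.8% of all windows. The E-box CANNTG was in 8 of them, of 6 genes, against 72.3%, and the ETS core GGAA, part of the site that PU.1 reads, was in all 14, against 96% of all windows. A GATA motif with any E-box within 20 bases, on either side and in any orientation, was in 0 of the 14, against 6.93%. These counts describe letters in short windows and no binding was measured.

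The enzymes that make heme were compared next, from a list of 9 of which 8 had a probe set of their own. Of these 7 were lower in MEL, 0 were higher and 1 did not pass (median -1.19, beside -0.15 over all genes). Counts of this and the following lists stand beside 43.2% of all genes called lower and 20.5% called higher. Alas2, which starts heme synthesis in erythroid cells, was 8.69-fold lower in MEL (adjusted p = 2.09e-10), Alad 3.16-fold, Fech, which inserts the iron, 2.92-fold and Urod 2.76-fold. Alas1, its counterpart in other tissues, differed by -0.08 ± 0.08 (SE, adjusted p = 0.39). After median centring or cyclic loess 6 of the 8 were lower. Of 9 measured mitochondrial carriers and partners of the enzymes, 5 were lower, 2 higher and 2 uncalled (median -0.43). The iron importer Slc25a37, the partner of Abcb10 named above, was 2.31-fold lower in MEL (adjusted p = 1.06e-06), the porphyrin-binding Tspo2 1.66-fold, the glycine carrier Slc25a38 1.54-fold and the heme chaperone Pgrmc2 1.5-fold. Clpx (0.03, adjusted p = 0.742) and Pgrmc1 (-0.07, adjusted p = 0.501) did not pass.

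Among 19 other carriers and binders of heme or porphyrins, 13 lay above background in either cell type. Of these 13, 5 were lower and 4 higher in MEL. Of the 19, 8 were lower, 4 higher and 7 uncalled (6 lower and 5 higher under each rescaling), with a median of -0.12 that lay between -0.03 and 0.03 after rescaling. Slc15a2, a peptide transporter of the plasma membrane, was 6.88-fold lower in MEL, where its signal was below background (3.80 and 3.70 against 6.53 and 6.54), so the size of the fold is not exact. Slc46a1, an intestinal folate carrier that can also take up heme, was 3.11-fold higher in MEL and below background in ES-EP (6.96 and 6.80 against 5.21 and 5.27), so the size of that fold is not exact either. Abcb8, a mitochondrial ABC transporter, was 2.11-fold higher in MEL (adjusted p = 9.48e-07). Slc22a7 (-0.80), the heme exporter homologue Flvcr2 (-0.18) and the hemoglobin-binding Hp (-0.12) lay below background in both cell types, so these differences give no direction. The lysosomal heme importer Slc48a1, named after its value was seen, read 10.98 and 10.87 in MEL against 10.10 and 10.29 in ES-EP, 1.66-fold higher in MEL (adjusted p = 6.4e-05).

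Hmox1 is under the control of the repressor BACH1, which heme inactivates, and of the activator NRF2 (Nfe2l2), which is held by KEAP1. Bach1 read 8.50 and 8.53 in MEL against 8.49 and 8.52 in ES-EP, a difference of 0.01 ± 0.08 (SE, 95% interval -0.17 to 0.19, adjusted p = 0.926). The arrays of the groups overlapped. Bach2 (0.19, adjusted p = 0.101), which lay below background in ES-EP, did not pass either, nor did Nfe2l2, which is named after its value was seen (-0.07, adjusted p = 0.485). Of 13 sensors and regulators measured, 5 were lower, 3 higher and 5 uncalled (2 lower and 4 higher with median centring, 4 of each under the other rescalings). The share lower was 38.5%, near the 43.2% of all genes. Eif2ak1, the heme-regulated kinase that slows translation when heme is short, was 1.68-fold lower in MEL (adjusted p = 5.44e-05), and the BACH1 and NRF2 partner Mafg 1.41-fold lower. The heme-binding nuclear receptor Nr1d1 (0.40) and Keap1 (0.36, 1.29-fold, adjusted p = 0.00254) were higher in MEL.

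Other genes under NRF2 and BACH1 went both ways. Of 12 measured targets 8 were lower, 2 higher and 2 uncalled (median -0.35, with 6 lower and 3 higher under median centring). The share lower was 66.7%, against 43.2% of all genes. Me1, which makes NADPH, was 6.87-fold higher in MEL (adjusted p = 7.45e-10), and Srxn1, which repairs peroxiredoxins, 1.97-fold higher. Gclc, the catalytic subunit of glutathione synthesis, was 1.95-fold lower and the ferritin light chain Ftl1 1.73-fold lower. Prdx1 (0.15, adjusted p = 0.162) and Gsr (-0.19, adjusted p = 0.0582) did not pass.

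Iron set free from heme is stored in ferritin or exported. Of a list of 12 genes that store, move or sense iron, importers included, 7 were lower, 3 higher and 2 uncalled (median -0.34). Under each rescaling 6 were lower and 4 higher. The share lower was 58.3%, against 43.2% of all genes. The metal importers of the ZIP family went in opposite directions, Slc39a14 2.4-fold higher in MEL and Slc39a8 2.33-fold lower. Ftl1, also counted above, and the transferrin receptor Tfrc (1.72-fold) were lower in MEL. The iron exporter Slc40a1, named after its value was seen, was 1.35-fold lower (adjusted p = 0.000788). The divalent metal transporter Slc11a2 (-0.09, adjusted p = 0.348) and the iron sensor Ireb2 (0.21, adjusted p = 0.0572) did not pass. Of 6 genes listed for electron supply and for steps beside heme breakdown, 4 were measured. Por, the reductase that supplies heme oxygenase with electrons, and Ugt1a1 had no probe set of their own, so nothing is known of them here. All 4 measured genes were lower (median -0.90), 3 of them above background, beside 43.2% of all genes called lower. Cytochrome b5 (Cyb5a) was 2.32-fold lower in MEL, catalase (Cat) 2.14-fold and the reductase Cyb5r3 1.63-fold, while Slco2b1 lay below background in both cell types (-0.59).

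**Figure D4:**
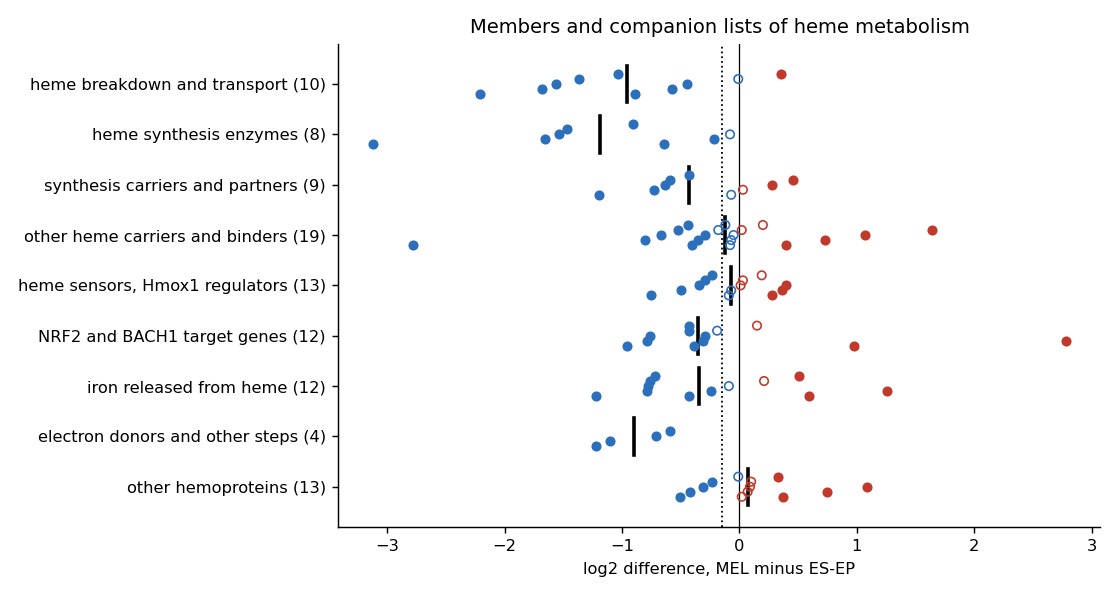
Log2 difference of MEL minus ES-EP (x axis) for the genes of the described set and of 8 lists of heme metabolism (y axis, number measured in parentheses), with 1 point per gene, blue where lower and red where higher in MEL, filled where called. Bars mark each list's median, -0.96 for the described set and -1.19 for heme synthesis enzymes, and the dotted line the median of all genes at -0.15.

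Markers of the cells themselves and of other cell types were read from lists. Of 12 erythroid identity genes 11 were measured, all above background in both cell types, with 7 lower, 3 higher and 1 uncalled in MEL (median -0.65). The brightest were Rhag, of the Rh complex of the red cell membrane (1.64-fold lower in MEL), Gata1 (2.21-fold higher, as above), the red cell surface protein Ermap (1.72-fold lower) and the erythroid factor Klf1 (1.57-fold lower). The widest differences in each direction, named after their values were seen, were those of the anion exchanger Slc4a1 (44.3-fold lower) and the membrane skeleton protein Add2 (4.71-fold higher). Of 10 mast cell markers 4 were above background in either cell type, and all 4 of these were lower in MEL. Over the 10 markers 9 were called lower (8, 8 and 7 after the rescalings), 5 of them below background in both cell types. Their summed signal was 8.79 and 8.68 in MEL against 11.81 and 11.70 in ES-EP on the log2 scale, led by Ms4a2 (3.95 ± 0.18 against 11.05 ± 0.13, SD, n = 2), Hdc (7.31 ± 0.02 against 9.28 ± 0.03) and Gata2 (6.79 ± 0.17 against 8.95 ± 0.01). Of 5 megakaryocyte markers measured 4 were above background in either. Of these 4, 3 were higher in MEL and 1 was lower (Vwf, -0.22, adjusted p = 0.0419, uncalled after each rescaling). Over the 5 markers 4 were called higher, 1 of them (Ppbp) below background in both cell types. Their summed log2 signal was 10.28 and 10.17 in MEL against 8.24 and 8.21 in ES-EP. Pf4 read 8.85 ± 0.06 in MEL and 3.89 ± 0.10 in ES-EP, below background there. The part of these markers in the differences of the heme genes was not tested.

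Macrophages are the cells that break down most heme. Of 14 macrophage markers 4 were above background in either cell type, among them Cd68 (7.17 ± 0.08 in MEL and 7.09 ± 0.04 in ES-EP, not called) and Csf1r (4.71 ± 0.08 and 5.61 ± 0.10). The other 2 were Siglec1 and Marco, at most 5.56 in either cell type, and the list's summed log2 signal was 8.90 and 8.88 in MEL against 9.10 and 9.16 in ES-EP. Of 8 neutrophil and monocyte markers measured 1 was above background, Prtn3 in MEL (7.15 ± 0.04), with sums of 8.31 on both MEL arrays and 8.02 and 8.03 in ES-EP. Of 8 markers of undifferentiated embryonic stem cells 2 were above background, both of them in both cell types. These were Nanog (5.38 in MEL and 5.77 in ES-EP) and Klf4 (5.67 and 6.10). The counts above background in either cell type were 4 of 8 for fibroblasts, 3 of 7 for B and T cells and 2 of 6 for hepatocytes. The summed log2 signals of these 4 lists, stem cells included, lay between 7.73 and 8.93 in MEL and between 7.90 and 9.10 in ES-EP.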

How the data were processed

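Expression was measured in total RNA of 4 cultures, 2 of MEL cells and 2 of ES-EP, with 1 array each. Per the labels and the methods, the authors ran RMA in GeneSpring GX and deposited log2 signals, 1 column per array. RMA sets background and distributions, yet array medians still differed. The submitters' processing notes name the build mm9 without a role. Of 35557 probe sets 21789 had 1 gene symbol in the array's gene table (21698 matched by Entrez number), 1621 had several and 12147 are unnamed here. The last 2 kinds were left out. The 19938 genes took the probe set with the highest mean.

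MEL minus ES-EP was tested two-sided with limma 3.58.1 in R 4.3.3 by lmFit and eBayes without a block (2 degrees of freedom from the arrays and 8.2 from the prior), adjusted by Benjamini-Hochberg over all genes at 0.05, and checked on simulated data. An exact permutation of 2 against 2 arrays cannot give a p below 0.333. SD is over 2 cultures. Background, set per cell type, means the 95th percentile over olfactory receptor genes. The number of arrays limits the precision.

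The genes and 17 companion and marker lists (190 entries with the described set, 177 measured) were chosen with earlier results of these data known. Of each list of heme metabolism, up to 4 called genes with the largest differences and the first 2 uncalled are named, and of marker lists up to 4 above background by signal. Genes whose signal lay below background in both cell types are given by value only. Alternatives were quantile normalization, median centring, cyclic loess, a filter on signal (at its median or 25th percentile), averaging the probe sets of a gene, testing every probe set, a replicate block, a robust eBayes with trend, Holm's adjustment, limma's treat at 1.2-fold, and each array left out in turn. Figures were drawn with Python 3.11.15 and matplotlib 3.10.9 from tables made with pandas 2.3.3.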

Additional observations from a re-analysis of the deposited data

How the results depend on the processing

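Of 135 values of the 9 called genes under alternatives, 129 kept their direction and their call, 6 kept their direction and lost the call, and 0 reversed. Hmox2 stayed uncalled in 15 of 15, and its sign was not stable (above 0 in 4, at 0.03, 0.14 and 0.06 under the quantile, median and loess rescalings and 0.06 without ES-EP replicate A). The losses were those of Hmox1, Flvcr1 and Abcb6 under Holm's adjustment, of Flvcr1 and Abcb6 in the test against a 1.2-fold difference, and of Abcb6 without MEL replicate A. The number of genes called was thus 6, 7 and 8 in place of 9 there, and 9 under the other alternatives. Their median difference moved from -0.96 to -0.89 (quantile), -0.81 (median centring) or -0.90 (cyclic loess) on rescaling, and lay between -1.05 and -0.87 when 1 array was left out; the cause was not tested.

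Over all 19938 genes, calls went from 12718 to 2837 under Holm's adjustment and to 6391 in the test against a 1.2-fold difference. Where only the 9969 genes at or above the median signal were tested, 7117 were called, a share of 71.4% against 63.8%. Over all 35557 probe sets 16027 were called. Of the 88 distinct genes of the lists of heme metabolism 64 were called (72.7%, against 63.8% of all genes), 20 under Holm's adjustment and 37 in the 1.2-fold test. With the replicate block 9 of the 10 genes, 12709 of all genes and 64 list genes were called; the letters A and B share only a letter (correlation of deviations -0.04), so no pairing is read from it. Leaving out an array leaves 1 array in that group, whose spread is taken to be that of the other group.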

Other observations

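A list of other proteins that hold heme or handle it for cytochromes, which leaves out the hemoglobin chains and includes cytoglobin and neuroglobin, was measured beside these genes. Of its 13 measured genes 10 lay above background in either cell type, and of these 4 were higher, 1 lower (Ngb) and 5 uncalled in MEL. The other 3, Cybb, Tdo2 and Ptgs2, lay below background in both cell types and were called lower, which makes 4 higher and 4 lower over the 13 (6 and 2 with median centring, 4 and 2 under the other rescalings). The share lower was 30.8% of the 13, against 43.2% of all genes. The median difference of the 13 was 0.07 on the log2 scale beside -0.15 over all genes, and no test of the list was run. Hccs, the enzyme that attaches heme to cytochrome c, read 11.13 and 11.10 in MEL against 10.02 and 10.05 in ES-EP, 2.12-fold higher in MEL (limma, adjusted p = 8.68e-07). Cygb, the cytoglobin gene, was 1.68-fold higher (7.45 and 7.55 against 6.90 and 6.60). Ngb, the neuroglobin gene, differed by -0.51 ± 0.08 (SE), and by -0.35, -0.36 and -0.29 after quantile, median and loess rescaling. Its means, 5.45 in MEL and 5.96 in ES-EP, lay close to the background levels of 5.19 and 5.56. Cycs, which encodes cytochrome c itself (0.07, adjusted p = 0.541), and Cox10, which makes the heme O that precedes heme A (0.02, adjusted p = 0.854), did not pass. Cox15, which acts in the later step to heme A and is named after its value was seen, was higher in MEL (0.37, adjusted p = 0.0027).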
